A study of Oreochromis niloticus with 6 samples.

Results

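Iron handling and heme metabolism were followed here through 53 of the 31872 loci with an FPKM above 0 in at least 1 liver library of GIFT, a farmed strain of Nile tilapia (Oreochromis niloticus). FPKM is the number of sequenced fragments scaled for the length of the transcript and the size of the library. A locus was taken where the authors' annotation placed it on the KEGG map of porphyrin metabolism (map 00860), or where its name was that of a transferrin, transferrin receptor, ferritin, hepcidin, hemopexin, ferroportin (slc40a1), DMT1 (slc11a2), ireb2 or heme oxygenase gene. The map alone gave 31 loci, the names alone 16, and both gave 6. The 6 loci named as ugt genes were left out. A further 8 loci of the map have no ugt name but are annotated as glucuronosyltransferases, and stayed in.

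In the control group (CG) 3 tanks were held at 5 mg/L dissolved oxygen. In the hypoxia group (HG) nitrogen was pumped into 3 tanks until the oxygen fell to what the study took as the median lethal level. The labels give 0.7 to 0.8 mg/L for these tanks, and the study's text gives a lower value. Livers were sampled at 96 h in both groups, and each group has 3 libraries, CG-1 to CG-3 and HG-1 to HG-3. The sources used here give no age for the fish and do not say whether a library came from 1 fish or from several, so the spread between libraries may be that between tanks, fish or pools.

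Animals need iron for heme, the iron-bearing ring of hemoglobin and the cytochromes, and for iron-sulfur clusters, yet free iron is toxic. Liver cells take up iron bound to transferrin, keep it in ferritin shells, release it through ferroportin, and secrete hepcidin, the peptide hormone that removes ferroportin from cell surfaces. They also make heme from glycine and succinyl-CoA in a chain of steps that starts with 5-aminolevulinate synthase, degrade it with heme oxygenase to iron and biliverdin, and secrete hemopexin, which carries free heme in plasma.

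Before the iron and heme loci, the labels were set against transcripts that low oxygen is known to raise through the hypoxia-inducible factor (HIF). Of 23 tested loci of HIF target genes, 19 were lower and 1, pdk1, was higher in the libraries labelled HG, with a median log2 change of -2.20. The HIF target egln3 stood at 212 to 375 FPKM in the libraries labelled CG and at 1.81 to 2.61 FPKM in those labelled HG, and ddit4 at 492 to 676 against 0.022 to 0.536 FPKM. These targets go against the group labels, so every direction below is that of the libraries labelled HG relative to those labelled CG, and whether the labels are as the tanks were was not tested. Liver transcripts were abundant in every library, with hepatocyte markers summing to 20648 to 32015 FPKM in CG and 42753 to 51005 in HG. Bile duct markers were lower at 4 of 5 tested loci (summed FPKM 605 to 700 in CG and 217 to 288 in HG) and exocrine pancreas markers at 5 of 7 (513 to 1099 and 57.2 to 260). None of these was higher. Over all loci tested, 8.27% were higher and 12.1% lower by the test given below. The part of bile duct and pancreas cells in the results was not tested. The libraries summed to 459912 to 493870 FPKM, correlated within groups at r = 0.868 to 0.918 and between groups at 0.661 to 0.785 (log2 scale, across loci), and the table holds no counts, so the number of fragments behind a value cannot be read from it.

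Most loci of this set that were called were lower in the libraries labelled HG. The plasma heme carrier hemopexin, 4 ferritin loci, the transferrin receptor tfr1b, the first enzyme of heme synthesis alas1 and the later enzyme cpox were among them. The 5 loci that were higher were 3 loci annotated as glucuronosyltransferases, 1 of 2 loci of the lysosomal enzyme beta-glucuronidase (gusb), and eprs, a tRNA synthetase that charges glutamate and proline. Of the 53 loci, 41 had a mean of at least 1 FPKM and were tested (limma on log2(FPKM + 1), Benjamini-Hochberg over all 16423 such loci, called at an adjusted p under 0.05). Of these 41 loci, 12 were called lower and 5 higher, and the other 24 did not pass. That is 12.2% higher and 29.3% lower, beside 8.27% and 12.1% over all loci tested (20.4% in either direction). With a log2 change of at least 1 as a further condition, 4 were higher and 12 lower, beside 7.03% and 9.54% of all loci. The 12 untested loci had means of at most 0.806 FPKM. Among 68 further tested loci of iron and heme biology outside this set (below), 9 (13.2%) were higher and 7 (10.3%) lower.

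Grouped by role, all 12 lower loci lay among the 31 tested loci assigned here to iron or heme handling, none of which was called higher. All 5 higher loci lay among the 10 other tested enzymes of the KEGG map. The shares of all loci tested were 12.1% lower and 8.27% higher. The roles were assigned with results of these data known, and the split depends on where the line was drawn. Biliverdin reductases were counted as heme handling, while the glucuronosyltransferases, which act on bilirubin, were not. The median log2 change was -0.68 over the 31 loci and 0.84 over the 10, and 0.10 over the 41 together, beside -0.14 over all loci tested. The libraries of the groups did not overlap at 26 of the 41 loci, with HG above at 12 and below at 14, beside 43.5% of all loci tested (16.5% above and 27.0% below). At an unadjusted p under 0.05 there were 26 of the 41, beside 36.6% of all loci tested. With the libraries scaled by the median of ratios, which moved the median change of all loci up by 0.15, 7 were higher and 10 lower, beside 11.1% and 9.71% of all loci. With no minimum on the mean, 6 of the 12 lower loci lost their call: hpx, fth1a, zgc:56095, alas1, hmox2a and tfr1b (MSTRG.1931), at limma adjusted p of 0.064 to 0.34. Without CG-1, 5 were higher and 9 lower, beside 902 and 1189 of the 16121 loci then tested. CG-1 differed from the other control libraries in its hemoglobin transcripts (below).

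**Figure D1:**
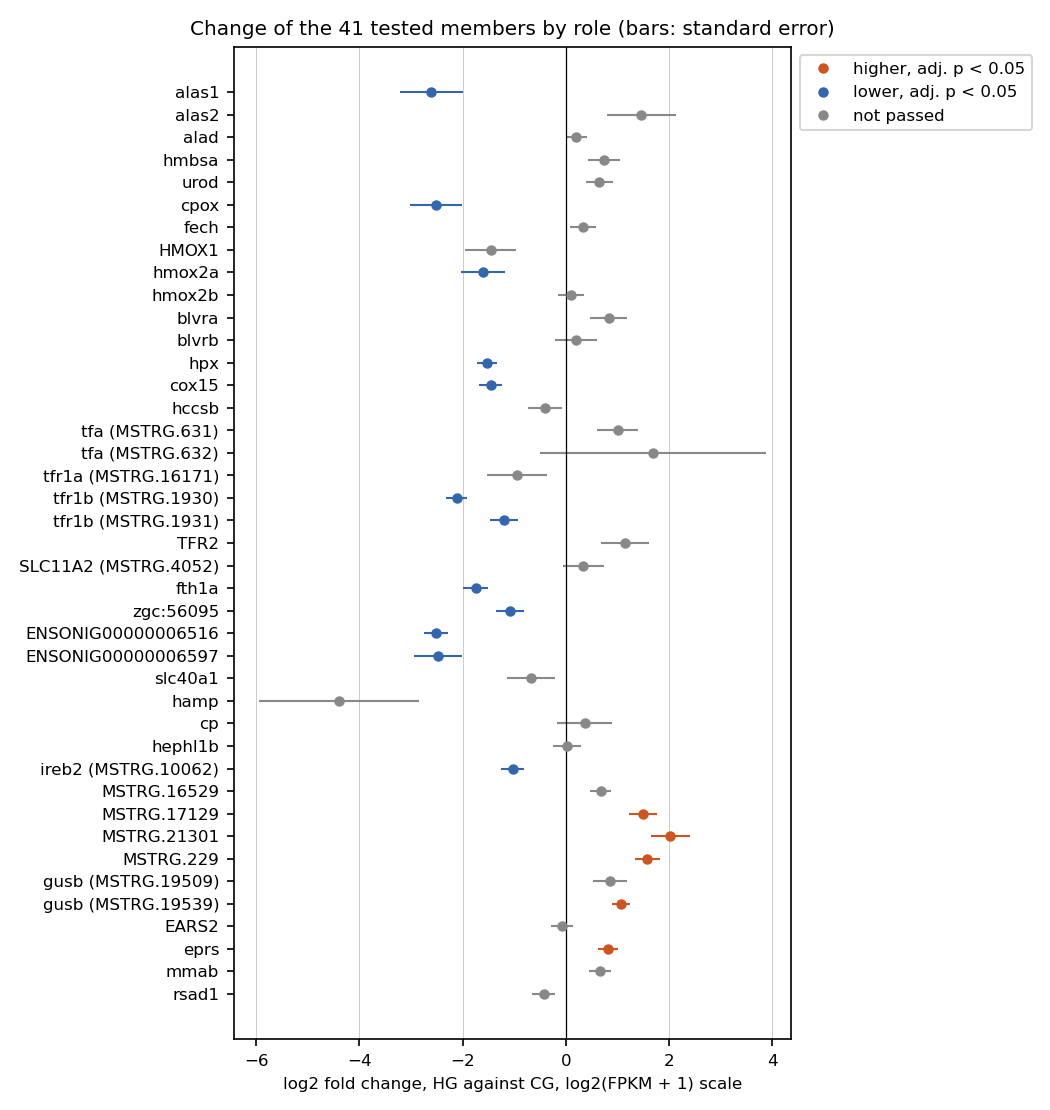
Change of the libraries labelled HG relative to CG in log2(FPKM + 1) (x axis) for the 41 tested loci, ordered by role from heme synthesis at the top to the other enzymes of the KEGG map at the bottom. Points are estimates from 3 libraries a group, bars are standard errors, and colour gives the call. The 4 tested ferritin loci lie between -2.52 and -1.08, and the 5 loci called higher lie between 0.82 and 2.03.

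Hemopexin (hpx) carried the largest share of all. Its transcript stood at 20254, 19836 and 22731 FPKM in CG-1 to CG-3 and at 8625, 7890 and 5600 FPKM in HG-1 to HG-3. It was the most abundant of all 31872 loci in each CG library and ranked 4, 5 and 7 in the HG libraries. Every HG library lay below every CG library, and hpx fell by 1.53 on the log2 scale (SE 0.20, limma adjusted p = 0.0041), with a mean 2.84-fold lower. With no minimum on the mean the change was the same and the call was lost (adjusted p = 0.34). On its own it made up 4.02 to 4.72% of the summed FPKM in CG and 1.18 to 1.82% in HG. All 53 loci together made up 7.80 to 8.21% in CG and 3.08 to 3.47% in HG. Hepatocyte markers as a list did not share this direction, and most had no call. Of 20 tested loci 6 rose, 1 fell and 13 had no call, beside 8.27% higher and 12.1% lower over all loci tested. The tfa loci, which are also among the 53, had no call. Among those that rose were apoa1a (log2 change 1.35, limma adjusted p = 0.0040), the main protein of high-density lipoprotein, and ambp (1.35, adjusted p = 0.013). The locus that fell is named fetub (MSTRG.16419, -4.42, limma adjusted p = 0.029), and other fetub loci rose. Whether hpx shares a cause with these markers was not tested. In these bulk samples fewer cells of a type and less RNA per cell cannot be told apart.

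All 4 tested ferritin loci were lower, beside 12.1% of all loci tested. Ferritin heavy chains oxidise iron as it enters the shell in which it is stored. The most abundant, fth1a, stood at 13112, 12783 and 9418 FPKM in CG-1 to CG-3 and at 3882, 4195 and 2574 FPKM in HG-1 to HG-3. It ranked 3 to 5 of all loci in CG and 12 to 23 in HG, and fell by 1.74 on the log2 scale (SE 0.24, limma adjusted p = 0.0053), a call lost with no minimum (adjusted p = 0.16). ENSONIG00000006516, an unnamed locus annotated with ferric iron binding, stood at 1078, 775 and 849 FPKM in CG and at 134, 149 and 186 FPKM in HG. Every HG library lay far below every control, with a mean 5.76-fold lower (log2 change -2.52, SE 0.23, limma adjusted p = 0.0016).

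A second unnamed ferritin locus, ENSONIG00000006597, stood at 2262, 1896 and 808 FPKM in CG and at 288, 175 and 393 FPKM in HG. CG-3 was the lowest control library and still above every HG library, and the locus fell by 2.48 (SE 0.47, limma adjusted p = 0.014). The ferritin-annotated zgc:56095, far less abundant, stood at 17.8, 12.1 and 11.6 FPKM in CG and at 7.68, 4.31 and 6.12 in HG. Its groups did not overlap either (log2 change -1.08, SE 0.27, limma adjusted p = 0.035), and its call was lost whichever library was left out (adjusted p 0.057 to 0.087) and under median-of-ratios (0.060) or quantile scaling (0.054). The remaining locus, fth1b, was too low to test, at 0.495 to 2.53 FPKM in CG and 0.203 to 0.327 in HG. Summed, the 5 loci came to 16472, 15467 and 11087 FPKM in CG and to 4312, 4523 and 3159 FPKM in HG, and fth1a made up 79.6 to 92.8% of that sum. How the authors' counting shared fragments among near-identical ferritin copies is not given in the sources used here, so the split between these loci is uncertain.

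**Figure D2:**
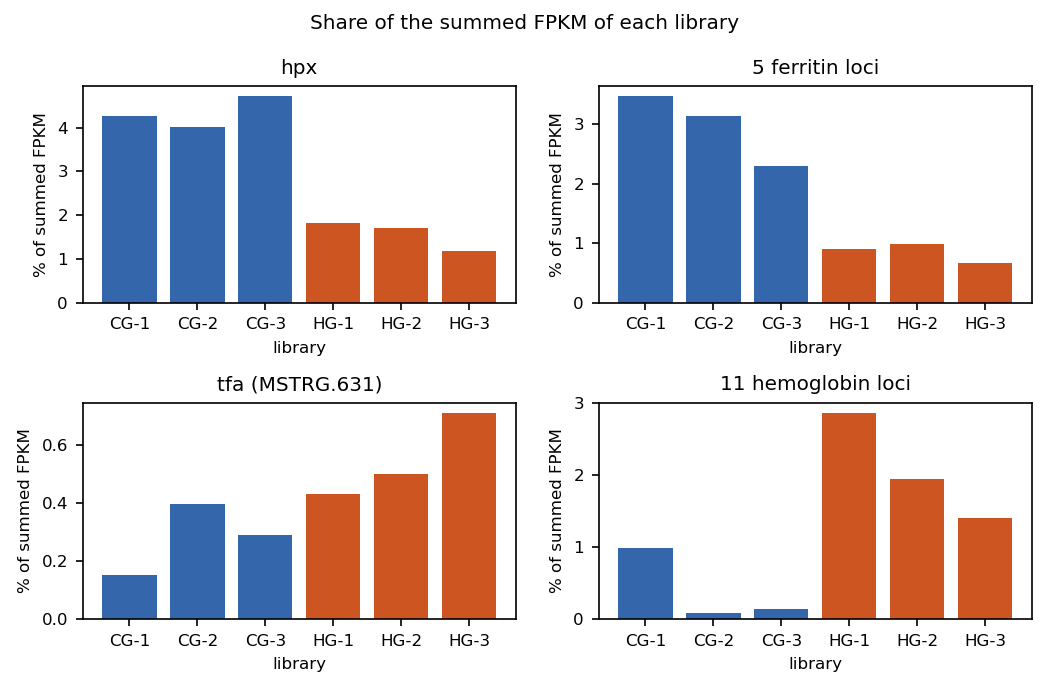
Share of the summed FPKM of each library (y axis, percent, from 0) taken by hpx, the 5 ferritin loci, the transferrin locus tfa and 11 hemoglobin loci; bars are the 6 libraries (x axis), blue for CG and orange for HG. The hpx and ferritin shares of the HG libraries lie below those of all CG libraries, while CG-1 holds 0.987% hemoglobin against 0.0883 and 0.143% in the other control libraries.

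Among the genes of iron transport and uptake, the receptor tfr1b was lower and the others did not pass. The transferrin receptor takes iron-loaded transferrin into cells. At its main locus (MSTRG.1930) tfr1b stood at 18.1, 17.9 and 17.8 FPKM in CG and at 4.20, 2.94 and 3.07 FPKM in HG. The CG libraries were nearly equal, and the mean was 5.27-fold lower in HG (log2 change -2.12, SE 0.20, limma adjusted p = 0.0016). A neighbouring locus of the same name (MSTRG.1931) stood at 4.17, 2.64 and 4.5 FPKM in CG and at 0.728, 1.78 and 0.783 in HG. It also fell (log2 change -1.20, SE 0.28, limma adjusted p = 0.027), but both may be pieces of 1 gene, and its call was lost without CG-1, CG-3, HG-1 or HG-3 (adjusted p 0.080 to 0.091).

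The paralog tfr1a (MSTRG.16171) was more abundant and overlapped between groups, at 140, 32.4 and 91.9 FPKM in CG and 59.0, 23.5 and 40.9 in HG (log2 change -0.94, SE 0.58, limma adjusted p = 0.28). Its spread was wide within both groups, and 2 further loci of that name were at 0 in most libraries. TFR2, which in mammals senses transferrin on hepatocytes, stood at 6.71, 3.11 and 6.23 FPKM in CG and 7.92, 9.71 and 25.2 in HG. Every HG library was above every CG library, with HG-3 far above the rest, and the change did not pass (1.15, SE 0.46, limma adjusted p = 0.12).

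Transferrin itself, tfa (MSTRG.631), stood at 717, 1956 and 1394 FPKM in CG-1 to CG-3 and at 2040, 2299 and 3375 FPKM in HG-1 to HG-3. The groups did not overlap, and the difference of 1.01 on the log2 scale (SE 0.40) did not pass (limma adjusted p = 0.12). A neighbouring tfa locus (MSTRG.632) ran from 0.154 to 58.1 FPKM in CG and from 0 to 199 in HG (limma adjusted p = 0.61). Relative to tfa, hpx was at a ratio of 10.1 to 28.3 in CG and 1.66 to 4.23 in HG. SLC11A2 (MSTRG.4052), the DMT1 carrier that moves ferrous iron across membranes, overlapped between groups at 7.91 to 19.7 FPKM in CG and 12.4 to 24.3 in HG (log2 change 0.34, SE 0.39, limma adjusted p = 0.57), and 2 further loci of that name were too low to test.

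None of the 4 loci of iron export and its control passed, beside 20.4% of all loci tested that passed in either direction. Hepcidin (hamp) differed most in size of all the tested loci of the set and varied most among libraries of 1 group, apart from the tfa locus MSTRG.632. It stood at 55.1, 601 and 626 FPKM in CG-1 to CG-3 and at 7.96, 1.25 and 113 FPKM in HG-1 to HG-3. HG-3 lay above CG-1, so the groups overlapped, and the change of -4.39 on the log2 scale (SE 1.55) had an unadjusted p of 0.026 and a limma adjusted p of 0.090. Without HG-3 the adjusted p was 0.036, and it lay between 0.078 and 0.215 when any other single library was left out.

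Ferroportin (slc40a1), the only known exporter of iron in vertebrate cells, stood at 134, 104 and 101 FPKM in CG and at 47.8, 149 and 47.4 FPKM in HG. HG-2 had the most ferroportin transcript of all 6, and the other HG libraries had less than any control (log2 change -0.68, SE 0.46, limma adjusted p = 0.33). Without HG-2 the decrease passed (adjusted p = 0.033). Ceruloplasmin (cp), the copper enzyme of plasma that oxidises exported iron, stood at 378, 1212 and 1136 FPKM in CG and at 861, 742 and 1766 in HG (log2 change 0.37, SE 0.53, limma adjusted p = 0.65). It was lowest in CG-1 and highest in HG-3, as was tfa. The related ferroxidase gene hephl1b lay between 0.837 and 2.19 FPKM in all 6 libraries (log2 change 0.02, SE 0.26, adjusted p = 0.96).

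The iron regulatory protein gene ireb2 was lower. In mammals its product binds hairpins in the messengers of ferritin and the transferrin receptor when iron is scarce, blocking the translation of the former and stabilising the latter. Its main locus (MSTRG.10062) stood at 9.01, 6.70 and 5.42 FPKM in CG and at 2.80, 3.36 and 2.52 FPKM in HG. The groups did not overlap, and it fell by 1.03 on the log2 scale (SE 0.23, limma adjusted p = 0.023), a call lost without CG-1, CG-2, HG-1 or HG-3 (adjusted p 0.051 to 0.079). A smaller ireb2 locus lay at or below 1.15 FPKM in every library.

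**Figure D3:**
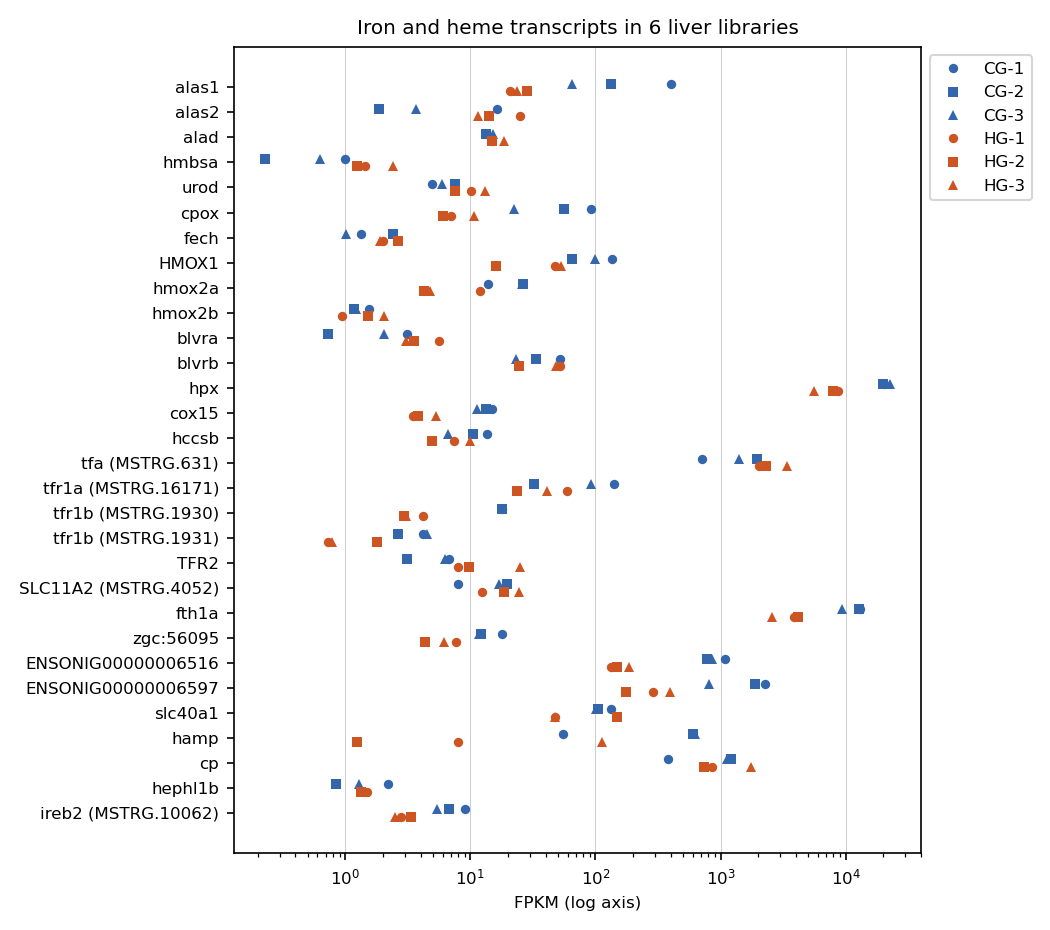
FPKM in each library (x axis, log scale) of 30 tested loci that handle iron or heme; circles, squares and triangles are libraries 1, 2 and 3, blue for CG and orange for HG, and the locus MSTRG.632, which is at 0 in HG-1, is not drawn. The control values of alas1, cpox and hamp are spread widely, and those of tfr1b (MSTRG.1930) nearly coincide. The values of hpx and fth1a reach farthest to the right, and those of fth1a in HG overlap those of tfa (MSTRG.631).

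In heme synthesis the first step of the liver, at its main locus, and a late step were lower, and the tested steps between them did not pass. Of 7 tested loci in the set followed here, 2 were lower and 5 did not pass, beside 12.1% lower and 8.27% higher over all loci tested. The gene alas1, for the housekeeping 5-aminolevulinate synthase that sets the rate of heme synthesis in liver, stood at 399, 134 and 64.7 FPKM in CG-1 to CG-3 and at 20.7, 28.5 and 23.7 FPKM in HG-1 to HG-3. The HG libraries lay close together while the controls spanned a 6.17-fold range, and the mean was 8.20-fold lower in HG (log2 change -2.60, SE 0.61, limma adjusted p = 0.029). The call was lost without CG-2, HG-1, HG-2 or HG-3 (adjusted p 0.063 to 0.094), and the change itself was -1.91 without CG-1, the highest control, and -3.21 without CG-3, the lowest. A far less abundant locus also named alas1 (MSTRG.17511) lies outside the set followed here. It overlapped between groups, and its change was above 0 and did not pass (log2 change 0.45, SE 0.29, limma adjusted p = 0.31).

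cpox, the mitochondrial enzyme that oxidises coproporphyrinogen, stood at 91.9, 56.5 and 22.4 FPKM in CG-1 to CG-3 and at 7.02, 6.02 and 10.8 FPKM in HG-1 to HG-3. As for alas1, CG-1 was highest and CG-3 lowest of the controls, and all 3 lay above every HG library. cpox fell by 2.52 on the log2 scale (SE 0.51, limma adjusted p = 0.018), a call lost without CG-2, HG-1 or HG-2 (adjusted p 0.053 to 0.065).

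The erythroid synthase alas2, which supplies heme for hemoglobin in red cells, differed in the other direction without passing. It stood at 16.3, 1.85 and 3.68 FPKM in CG-1 to CG-3 and at 24.8, 14.2 and 11.5 FPKM in HG-1 to HG-3. CG-1 lay among the HG libraries and the other controls below them (log2 change 1.47, SE 0.66, limma adjusted p = 0.16), and without CG-1 the change was 2.22 with an adjusted p of 0.025. The ratio of alas1 to alas2, as FPKM, was 17.5 to 72.3 in CG and 0.836 to 2.05 in HG.

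Between these ends, alad, which joins the product of the synthases into a pyrrole, stood at 13.3 to 15.1 FPKM in CG and 15.0 to 18.6 in HG (log2 change 0.21, SE 0.20, limma adjusted p = 0.49). hmbsa, which links 4 pyrroles into a chain, stood at 1.0, 0.228 and 0.631 FPKM in CG and 1.44, 1.24 and 2.40 in HG (0.74, SE 0.31, adjusted p = 0.13). urod, the next decarboxylase, stood at 4.91, 7.51 and 5.95 FPKM in CG and 10.2, 7.53 and 13.1 in HG (0.65, SE 0.26, adjusted p = 0.12). The groups did not overlap for hmbsa and urod, although CG-2 and HG-2 were nearly equal for urod. After cpox comes ppox, a locus outside the set followed here. It stood at 2.90 to 5.16 FPKM in CG and 3.75 to 4.24 in HG (0.14, SE 0.23, limma adjusted p = 0.71). The last step is fech, the ferrochelatase that inserts iron. It overlapped at 1.01 to 2.39 FPKM in CG and 1.90 to 2.66 in HG (0.33, SE 0.26, adjusted p = 0.40).

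Heme oxygenase opens the heme ring and frees its iron. Its inducible form, HMOX1, stood at 135, 65.4 and 99.9 FPKM in CG and at 47.1, 16.1 and 52.8 FPKM in HG. Every HG library lay below every control, and the difference of -1.46 on the log2 scale (SE 0.50) did not pass (limma adjusted p = 0.083). The constitutive form hmox2a stood at 13.9, 26.5 and 25.8 FPKM in CG and at 12.03, 4.27 and 4.75 in HG. CG-1 and HG-1 were close to each other and the other libraries far apart, and hmox2a fell by 1.60 (SE 0.43, limma adjusted p = 0.041). That call was lost with the libraries scaled by the median of ratios (adjusted p = 0.085) or by quantiles (0.082), and without CG-2, CG-3, HG-2 or HG-3 (0.10 to 0.12).

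The paralog hmox2b overlapped between groups at 0.946 to 2.05 FPKM (log2 change 0.10, SE 0.25, limma adjusted p = 0.81), and hmox1a, at most 1.18 FPKM, was not tested. Biliverdin reductases turn the green product of heme oxygenase into bilirubin. blvra stood at 3.11, 0.734 and 2.05 FPKM in CG and 5.66, 3.54 and 3.05 in HG (0.83, SE 0.36, adjusted p = 0.15), and blvrb at 23.3 to 52.2 and 24.6 to 51.9 (0.20, SE 0.40, adjusted p = 0.75). Both overlapped between groups. Macrophages also break down heme and recycle iron. Of 11 tested loci of macrophage markers 0 were higher and 2, mafb and lgmn, were lower (8.27% and 12.1% over all loci), and the list summed to 288 to 462 FPKM in CG and 300 to 431 in HG. Its part in the values of HMOX1 and slc40a1 was not tested.

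Of the genes that place heme in cytochromes, cox15, which makes the heme a of cytochrome c oxidase, was lower. It stood at 14.8, 13.3 and 11.3 FPKM in CG and 3.47, 3.79 and 5.32 in HG. The groups were far apart and the mean was 3.14-fold lower in HG (log2 change -1.46, SE 0.22, limma adjusted p = 0.0070). hccsb, the lyase that attaches heme to cytochrome c, overlapped at 6.58 to 13.5 FPKM in CG and 4.96 to 9.93 in HG (-0.40, SE 0.33, adjusted p = 0.42).

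Glucuronosyltransferases join glucuronic acid to bilirubin, steroids and drugs, and the KEGG map lists them for their part in bilirubin excretion. Of 8 loci so annotated but not named, 4 were tested and 3 were higher, beside 8.27% of all loci tested. MSTRG.21301 stood at 1.76, 4.11 and 6.92 FPKM in CG and 17.3, 19.9 and 18.8 in HG (log2 change 2.03, SE 0.38, limma adjusted p = 0.014). MSTRG.229 stood at 2.0, 2.72 and 2.82 FPKM in CG and 9.63, 7.17 and 12.2 in HG (1.58, SE 0.24, adjusted p = 0.0070). MSTRG.17129 stood at 1.86, 4.10 and 3.53 FPKM in CG and 8.97, 10.3 and 12.2 in HG (1.5, SE 0.27, adjusted p = 0.012). At all 3 loci every HG library exceeded every control, and each call remained whichever library was left out. MSTRG.16529 also did not overlap, at 6.27 to 8.98 FPKM in CG and 12.3 to 13.2 in HG, and did not pass (0.68, SE 0.20, adjusted p = 0.057). Which substrates these 4 loci serve is not annotated, and reads shared with related copies could not be checked.

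The lysosomal beta-glucuronidase gusb removes glucuronic acid. Its locus MSTRG.19539 stood at 4.5, 5.07 and 4.98 FPKM in CG and 11.7, 11.3 and 10.8 in HG. The libraries of each group lay close together and gusb rose by 1.07 on the log2 scale (SE 0.18, limma adjusted p = 0.0090). A second gusb locus did not pass (0.86, SE 0.33, adjusted p = 0.11). eprs stood at 4.56, 5.48 and 4.38 FPKM in CG and 8.31, 8.56 and 10.95 in HG. It rose by 0.82 (SE 0.20, limma adjusted p = 0.032), a call lost whichever library was left out (adjusted p 0.058 to 0.089). The other tested enzymes of the map, mmab, rsad1 and EARS2, had log2 changes of 0.66, -0.43 and -0.08 and did not pass.

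Red cells hold most of the heme of a fish, and their RNA was set beside these values because fish red cells keep their nuclei. The 11 loci annotated as hemoglobin chains summed to 4686, 436 and 690 FPKM in CG-1 to CG-3 and to 13594, 8943 and 6690 FPKM in HG-1 to HG-3. Every HG library exceeded every control, and CG-1 stood far above the other controls, as it did for alas2. The 3 abundant loci had log2 changes of 4.59 (MSTRG.4613, limma adjusted p = 0.022), 3.51 (MSTRG.4614, adjusted p = 0.043) and 2.50 (MSTRG.4620, adjusted p = 0.073), while hbbe2, a chain named for its embryonic form, was lower (-3.53, adjusted p = 0.0088).

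Among 11 tested loci of the red cell markers, which include alas2 and hbbe2, klf1 (1.25) and rhag (1.5) were higher. Of the rest, hbbe2 was lower and the other 8 did not pass, beside 8.27% higher and 12.1% lower over all loci tested. That list summed to 93.9, 29.4 and 28.3 FPKM in CG-1 to CG-3 and 86.6, 57.0 and 47.6 in HG-1 to HG-3. In rank order CG-1 lay above every HG library on this list and below them for hemoglobin. The locus hbbe2 is part of both sums, at 37.8 FPKM in CG-1 and 0 to 1.22 FPKM in HG. The place of CG-1 on this list depends on that locus. The part of blood in the values of alas2 or of other loci was not tested.

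Of 68 further tested loci of iron and heme biology, taken from lists by name, 9 (13.2%) were higher and 7 (10.3%) lower, beside 8.27% and 12.1% of all loci. Around hepcidin, 14 loci of its signaling were tested, 1 of which was higher and 3 lower. TMPRSS6, the protease that in mammals removes hemojuvelin and so lowers hepcidin, stood at 5.80, 11.8 and 10.2 FPKM in CG and 36.7, 37.5 and 42.5 in HG (log2 change 2.0, SE 0.28, limma adjusted p = 0.0055). The BMP receptor bmpr1aa (-0.94, adjusted p = 0.022) and the BMP targets smad7 (-1.36, adjusted p = 0.013) and id1 (-1.67, adjusted p = 0.034), which respond to the pathway that turns hepcidin on, were lower. For id1 the libraries stood at 16.2, 34.9 and 54.8 FPKM in CG and 9.5, 8.91 and 9.31 in HG. CG-1 was the lowest control for id1 and hamp, and for TMPRSS6 as well. Whether these loci vary together was not tested. The ligand bmp6 (-0.77) and hemojuvelin, named hfe2 (0.90), did not pass.

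Among loci of heme transport and binding other than hpx, 5 of 20 were higher and 1 was lower, beside 8.27% and 12.1% of all loci tested. pgrmc1, a heme-binding membrane protein, stood at 2.76, 3.84 and 4.08 FPKM in CG and 27.4, 39.8 and 25.9 in HG (log2 change 2.80, SE 0.25, limma adjusted p = 0.0015). The haptoglobin locus hp (MSTRG.15428), whose product binds free hemoglobin in plasma, stood at 1158, 1319 and 883 FPKM in CG and 1865, 1950 and 2070 in HG (0.83, SE 0.20, adjusted p = 0.033). The 2 further tested hp loci did not pass, with changes below 0 (MSTRG.8136 at -0.84 and MSTRG.8137 at -1.08), so the tested loci of this name had no common direction. Another hp locus, MSTRG.8138, was too low to test, at 0.244 to 1.02 FPKM in CG and 0 to 0.330 in HG. The other loci that rose were hebp2 (1.06), flvcr2a (1.57) and flvcr2b (MSTRG.18862, 1.96), and the efflux pump abcg2a fell by 1.31 (limma adjusted p 0.0029 to 0.049 for these 4). A second and more abundant flvcr2b locus (MSTRG.18863) overlapped between groups and did not pass (0.62, limma adjusted p = 0.61).

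The remaining lists gave single genes. Over all loci tested, 8.27% were higher and 12.1% lower. Of 4 further loci of iron uptake slc39a8, a carrier of zinc, manganese and iron, was lower (-1.57, limma adjusted p = 0.049), and of 2 further loci of iron storage the iron chaperone pcbp2 was lower (-0.84, adjusted p = 0.033). fbxl5, which in mammals marks the ireb2 product for degradation when iron is ample, was lower (-0.94, adjusted p = 0.023), while aco1, the other iron regulatory protein, was not called (0.63, adjusted p = 0.064). Of 13 loci of mitochondrial iron and iron-sulfur clusters, 2 were higher: glrx5, which passes clusters on (1.25, adjusted p = 0.0082), and a locus of the mitochondrial iron importer slc25a28 (0.74, adjusted p = 0.039). Of 9 heme-responsive regulators, nr1d2b, a nuclear receptor that binds heme, was higher (1.2, adjusted p = 0.032).

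**Figure D4:**
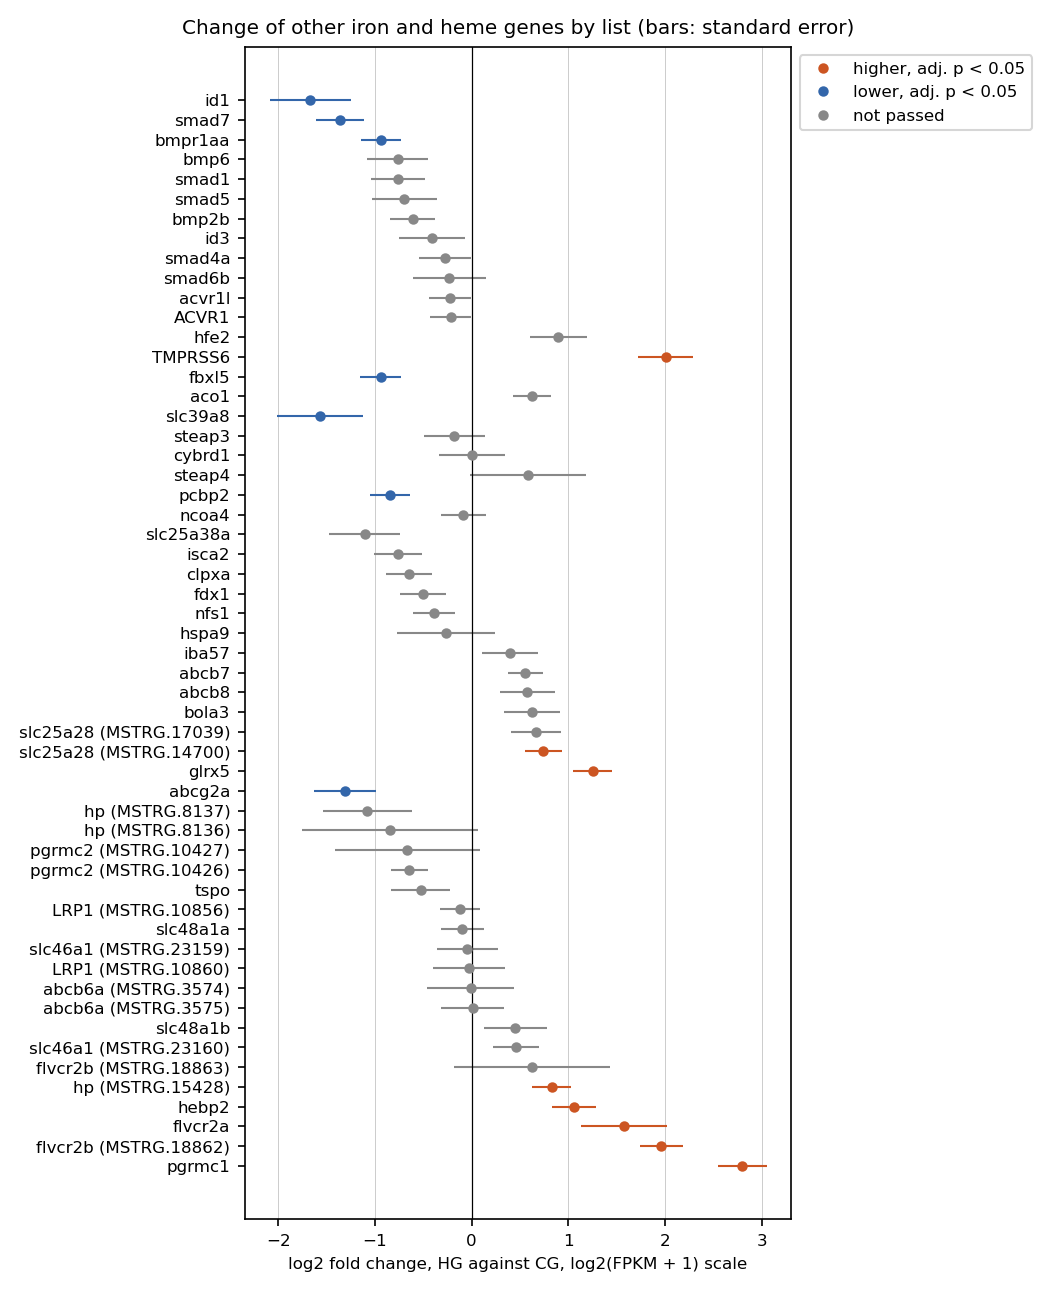
Change of the libraries labelled HG relative to CG in log2(FPKM + 1) (x axis; bars are standard errors, 3 libraries a group) for 55 further loci of iron and heme biology, listed from hepcidin signaling at the top through iron regulation, uptake, storage and mitochondrial iron to heme transport and binding at the bottom. TMPRSS6 at 2.0 and pgrmc1 at 2.80 lie farthest to the right and id1 at -1.67 farthest to the left.

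Across the tested loci the spread within groups was near that of other loci, with a median SD on the log2 scale of 0.35 in CG and 0.36 in HG beside 0.32 and 0.29 over all loci tested. Of the 17 called loci, 10 passed whichever 1 of the 6 libraries was left out: hpx, cox15, tfr1b (MSTRG.1930), fth1a, both unnamed ferritin loci, 3 glucuronosyltransferase loci and gusb. The other 7 lost their call in at least 1 of these fits. Of the 10, ENSONIG00000006597 passed narrowly without HG-1 (limma adjusted p = 0.0499), and hpx and fth1a lost their call with no minimum on the mean. In a Ballgown-style linear model none of the 17 passed.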

How the data were processed

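RNA of 6 livers or liver pools was sequenced, 3 libraries a group. The authors aligned reads with HISAT and assembled and quantified transcripts with StringTie, and they deposited FPKM per locus for each library, with annotation columns. The study's text gives read numbers per library, which were not used here. FPKM carries no counts per locus, so no counting error was computed and no count test was run. Versions and counting of shared reads are not given in the sources used here.

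HG was compared with CG in limma 3.58.1 (R 4.3.3) on log2(FPKM + 1), with a variance trend, two-sided, over 16423 loci whose mean reached 1 FPKM, with Benjamini-Hochberg adjustment. Fold changes on this scale understate those of low loci. P-values rest on the spread between libraries only, and an exact permutation test of 3 against 3 cannot go below 0.1. The variance of each locus was drawn toward a trend over all loci tested, so its p-value also depends on which loci were tested. The fit was also run on simulated data with independent noise at each locus and no differences shared across a library. The outcome of those runs is not given here, and they do not bear on such shared differences.

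Named loci were every called member, the families listed in the report whatever their call, and called loci of the wider lists. The members, roles and lists were chosen with earlier results of these data known. Alternatives were other pseudocounts, minima, scalings and variance models, a Ballgown-style linear model, a replicate block and leaving out each library.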

Additional observations from a re-analysis of the deposited data

How the results depend on the processing

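Of the members, 5 were higher and 12 lower. These counts were 5 and 12 with pseudocounts of 0.1 or 0.5, without the variance trend and with robust estimation. With no minimum, 5 were higher and 6 lower, beside 955 and 1327 of 31872 loci, and hpx (limma adjusted p = 0.34) and fth1a (0.16) were not called. With a minimum mean of 10 FPKM, 21 members were tested, and 1 was higher and 8 lower, beside 634 and 770 of 3319 loci. All 9 called members still tested kept their call. With median-of-ratios or quantile scaling, 7 were higher and 10 lower, so that 41.2% rather than 29.4% of calls were higher; over all loci this share was 53.3% and 50.2% rather than 40.6%. In a Ballgown-style linear model 0 members were higher and 0 lower, as was any locus, with 9 members and 2618 of all loci at an unadjusted p under 0.05. Leaving out 1 library gave 4 to 5 higher and 7 to 9 lower (7 without CG-2 and 7 without HG-1), with fewer samples in each fit. Over all loci these fits gave 778 to 985 higher and 819 to 1461 lower. Same-numbered libraries deviated together at correlations of 0.04, -0.10 and -0.08, so the numbers were not taken as pairs. With a replicate block 4 members were higher and 9 lower, 12 of the 17 calls among them, beside 867 and 1093 of 16423 loci. Over all these alternatives no call changed direction. Depth limits the loci near 1 FPKM most, and counting error was not computed, since the table holds no counts.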
